A study of Mus musculus with 6 samples.

Results

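The genes described here are 9 genes of lymphatic and venous valves: Foxc2, Foxc1, Nfatc1, Gata2, Cldn11, Gja1, Celsr1, Vangl2 and Fat4. They were chosen by gene symbol among the 19131 genes of each library, and all 9 had a row in the 6 libraries and passed the filter on low counts. The choice was made with earlier results of the comparison between knockout and control known, so the differences between the groups are given as a description of these libraries and support nothing beyond them. The libraries are bulk RNA-seq of skin tissue from mouse embryos at E17.5, 3 from Tie1 knockout and 3 from Tie1 control embryos, all on the C57BL/6N strain background. The labels name no Cre line, promoter or drug, do not say in which cells or how Tie1 was deleted, leave the letters ECD of the genotype names Tie1ECDKO (knockout) and Tie1ECDWT (control) unexplained, and do not tell whether the 3 libraries per genotype stem from different embryos or litters. The p-values below therefore measure only the spread between these libraries, which may be technical. TIE1 is a receptor tyrosine kinase of endothelial cells, and the series asks how its loss affects sprouting and the assembly of veins.

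Valves are pairs of endothelial leaflets that stop backflow in collecting lymphatic vessels and in veins. During their formation, clusters of endothelial cells at sites of disturbed flow raise the transcription factors FOXC2, GATA2 and PROX1, signal through calcineurin and NFATc1, couple through connexins, and turn and elongate with the help of the planar polarity proteins CELSR1 and VANGL2 and the atypical cadherin FAT4. Several of these genes are also known from other cells of skin, such as Gja1, Celsr1 and Vangl2 from epidermis and hair follicles, Nfatc1 from hair follicle stem cells and osteoclasts, and Gata2 from mast cells. Skin tissue mixes all of these sources, and a lower level can come from fewer cells of a type or from less RNA per cell, which cannot be told apart here.

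Of the 9 genes, 2 were lower in knockout skin by the test across all genes: Foxc2, the forkhead factor of valve-forming endothelium, and Cldn11, a claudin that is known as a marker of valve endothelium and as a tight junction protein of myelin and testis. Foxc2 averaged 0.585 ± 0.121 CPM (counts relative to the TMM-scaled total of the library) in knockout and 3.62 ± 1.18 CPM in control skin, and Cldn11 averaged 0.618 ± 0.150 and 4.08 ± 1.02 CPM (SD, n = 3 each). None of the other 7 passed the threshold, an adjusted p under 0.05 by edgeR's quasi-likelihood test with Benjamini-Hochberg adjustment over all genes. The background is 0.0732% of the 15035 genes tested called lower and 0.0865% called higher, and nothing is read from the count of members, since this contrast was known when they were chosen. Every knockout library lay below every control library for the same 2 genes, against 6.78% of all genes tested, and no member had every knockout library above every control library, against 7.03%. The median log2 fold change of the 9 genes was −0.32 and that of all genes tested 0.0038. At an unadjusted p under 0.05 by edgeR, 503 of the 15035 genes tested were lower and 613 higher. These are the background for the unadjusted counts of gene lists below.

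The promoters of both junction genes are shown because their values differed, with Cldn11 among the lowest fold changes of the table and Gja1 close to 0. Each window runs from 250 bases before to 50 bases after an annotated start, 300 bases in all, read 5′ to 3′ on the + strand from RefSeq sequence of GRCm38.p6 (Cldn11 chr3:31149670-31149969, Gja1 chr10:56377050-56377349). Windows of 6 of the 9 genes were read here (7 windows, with 2 for Gata2), of which those of Cldn11 and Gja1 are printed. No window of Foxc2, Nfatc1 or Celsr1 was read, so the member counts below leave these genes out. Capitals mark matches, on either strand, to core letters of the GATA motif (AGATAA) and the NFAT motif (GGAAA), and the forkhead core (TAAACA) was searched in the same way; no match in the printed windows overlaps another.
Cldn11: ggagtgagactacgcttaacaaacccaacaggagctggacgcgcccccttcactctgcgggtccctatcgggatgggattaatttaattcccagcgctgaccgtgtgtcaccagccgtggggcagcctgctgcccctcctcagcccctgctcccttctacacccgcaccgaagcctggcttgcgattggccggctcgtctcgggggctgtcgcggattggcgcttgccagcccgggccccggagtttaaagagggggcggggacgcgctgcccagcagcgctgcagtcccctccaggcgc
Gja1: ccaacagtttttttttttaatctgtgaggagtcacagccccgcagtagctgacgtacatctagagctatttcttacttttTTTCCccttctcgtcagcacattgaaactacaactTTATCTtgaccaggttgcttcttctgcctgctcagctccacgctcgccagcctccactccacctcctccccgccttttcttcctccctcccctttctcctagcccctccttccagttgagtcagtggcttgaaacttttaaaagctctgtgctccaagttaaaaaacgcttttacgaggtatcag
The forkhead letters were in none of the 7 windows and in 13.4% of all 32851 windows. The GATA letters were in the Gja1 window and in 11.2% of all windows, and the NFAT letters in the Gja1, Fat4 and Foxc1 windows and in 61.3% of all. The Cldn11 window held none of these letters, which says nothing about the factors. It was richer in G and C (66.3%, with 24 CpG) than the Gja1 window (47.7%, with 8 CpG), where the median window had 52.7% and 7 CpG.

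Tie1, the targeted gene, stood at 4.33, 2.63 and 2.26 CPM in the knockouts and 58.6, 50.7 and 60.0 CPM in the controls, 5.41% of the control level in the pooled reads, which fits the genotype labels. Skin markers were abundant in all 6 libraries, with the summed level of 9 keratinocyte genes at 17600 to 35700 CPM and of 8 dermal fibroblast genes at 33700 to 39900 CPM. The estimated counts summed to 19826856 to 20591164 per library. Knockout 1 and control 1 stood apart from the other 4 in hair follicle genes, whose mean log2 CPM over 12 genes was 3.46 and 3.78 there and 5.11 to 5.79 elsewhere. The 16 pan-endothelial genes had a mean log2 CPM of 5.22 to 5.40 in knockout and 5.29 to 5.41 in control libraries, and 0 of the 16 were called, with 3 lower and 3 higher at an unadjusted p under 0.05.

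**Figure D1:**
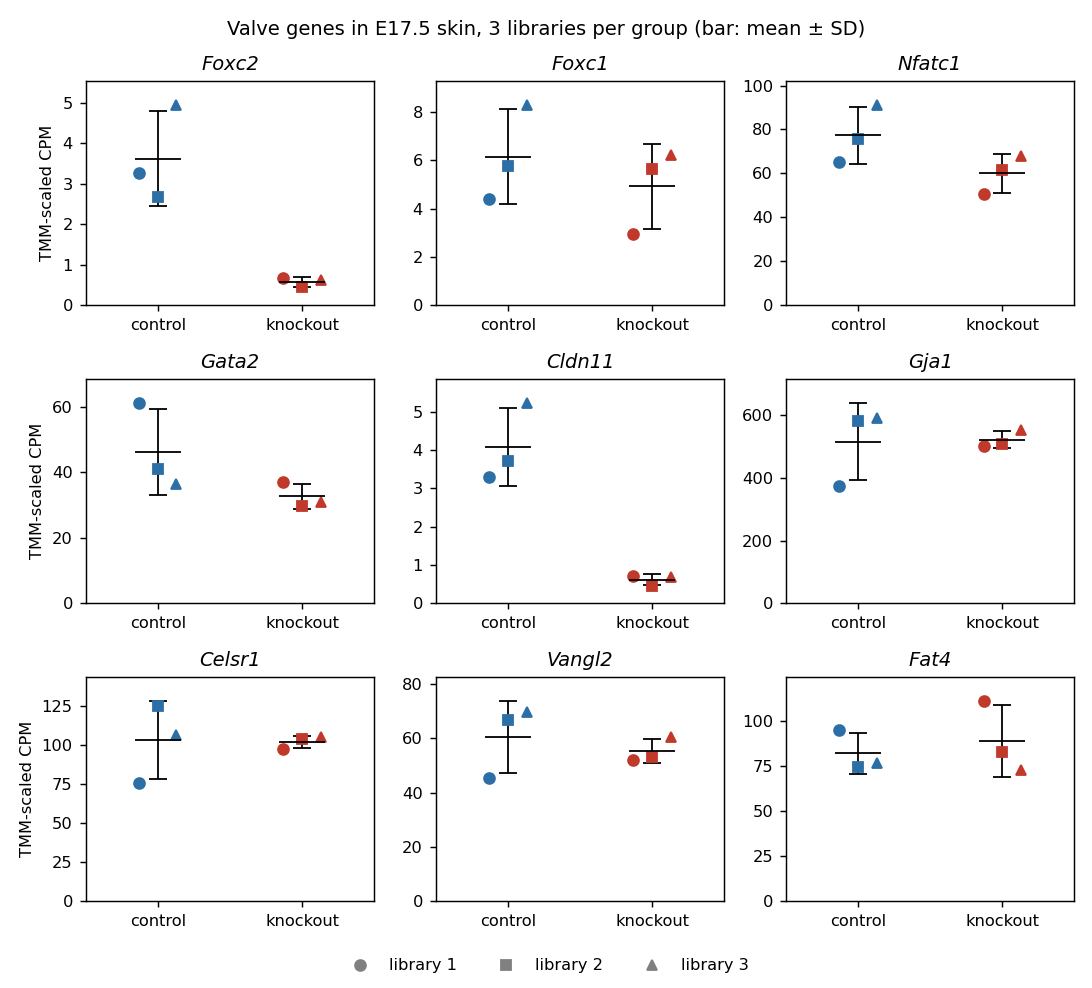
TMM-scaled CPM (vertical axes, each from 0) of the 9 valve genes in control and knockout libraries; points are libraries, with 1 marker shape per library number, and bars are the mean ± SD of 3. The knockout points of Foxc2 and Cldn11 lie at 0.446 to 0.722 CPM, below all of their control points, and the points of the other 7 genes overlap.

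Foxc2 (gene 14234, chromosome 8, 121116171 to 121118895, RefSeq coordinates of GRCm38.p6 here and below) is needed for lymphatic valves, and its human counterpart is mutated in lymphedema-distichiasis. It had 13, 9.11 and 13 estimated reads in the knockouts and 66.04, 54.41 and 100.47 in the controls. As levels these were 0.670, 0.446 and 0.638 CPM against 3.26, 2.67 and 4.94 CPM. Every knockout library was far below the lowest control library, control 2, and control 3 was the highest. The pooled knockout reads were at 16.1% of the control level (35 against 220 rounded reads, exact Clopper-Pearson 95% interval 10.9 to 23.1%, which covers counting error only, since PCR copies are not independent molecules). The fit gave a log2 fold change of −2.62 (SE 0.32; adjusted p by edgeR = 0.0411, n = 3 each).

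Cldn11 (gene 18417, chromosome 3, 31149920 to 31164326) had levels near those of Foxc2, with the widest gap in control 2. It had 14, 9 and 14 reads in the knockouts and 67, 75 and 106 in the controls, which is 0.722, 0.446 and 0.687 CPM against 3.31, 3.71 and 5.23 CPM. As with Foxc2, knockout 2 was the lowest and control 3 the highest library, and the groups did not overlap. The pooled knockout reads were at 15.1% of the control level (37 against 248 reads, 95% counting interval 10.4 to 21.4%), and the fit gave −2.71 on the log2 scale (SE 0.29, adjusted p by edgeR = 0.0330, n = 3 each).

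Leaving out any 1 library ended both calls, with log2 fold changes of −2.80 to −2.34 for Foxc2 (edgeR adjusted p = 0.0919 to 0.282) and −2.84 to −2.50 for Cldn11 (0.0582 to 0.203), in fits with fewer samples, although both were called without knockout 1 and control 1 together. The calls were also lost with limma-voom and when the mean level of 8 posterior Hox genes entered the fit as a covariate. That score, the mean log2 CPM of genes that mark position along the body, was 2.10 to 2.53 in the knockout libraries and 2.21, 1.38 and 0.94 in control 1, 2 and 3. The part of body position in these results was not tested, and the fold changes were −2.25 for both genes with the score in the fit.

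Profiles were compared by the root mean square difference of log2 CPM, centred on each gene's mean over the 6 libraries. Among the 13820 other genes that averaged 1 CPM or more, predicted genes passed over, Cldn11 was the gene closest to Foxc2, at 0.154. The next were Dtx1, a regulator of Notch signalling, at 0.318, Fgl2, a fibrinogen-like protein, at 0.345, Ackr1, the chemokine-binding receptor of venules, at 0.389, and Lbp, the lipopolysaccharide-binding protein, at 0.393. Their log2 fold changes were −2.05 (SE 0.28) for Dtx1 and −2.03 (SE 0.29) for Fgl2, which missed the edgeR threshold (adjusted p = 0.0586 and 0.0847), and −2.06 (SE 0.25) for Ackr1 and −1.82 (SE 0.22) for Lbp, which passed it (adjusted p = 0.0396 and 0.0379). Closeness here includes the difference between the groups and rests on 6 libraries, so it is a description.

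**Figure D2:**
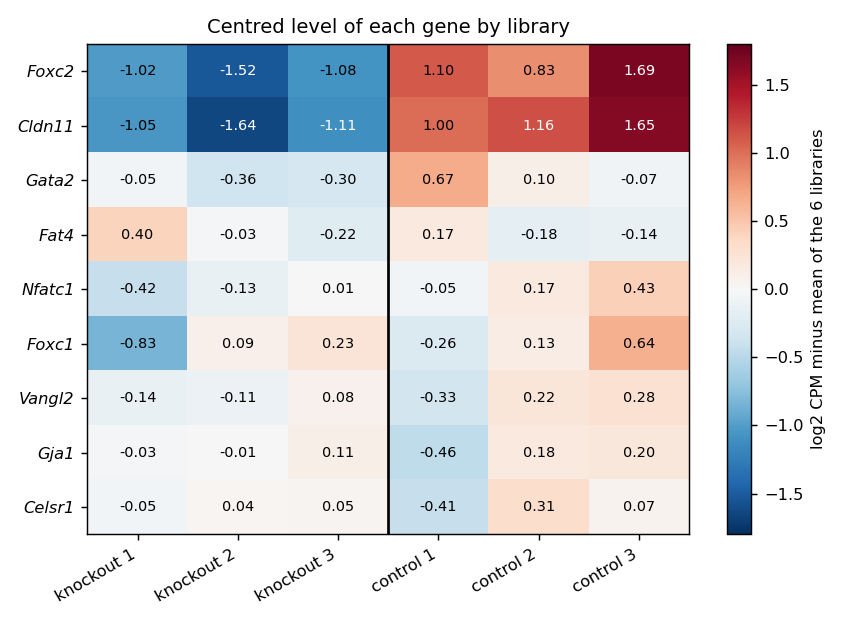
Level of each gene in each library as log2 CPM minus that gene's mean over the 6 libraries (colour and printed value), with knockout libraries to the left of the line. Foxc2 and Cldn11 run from −1.52 and −1.64 in knockout 2 to 1.69 and 1.65 in control 3, and Gja1, Celsr1 and Vangl2 are lowest in control 1.

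Set against the 16 pan-endothelial genes of the same library, Foxc2 stood at −5.60, −6.11 and −5.84 in the knockouts and −3.66, −3.82 and −2.97 in the controls (log2 CPM difference). The group means were −5.85 ± 0.26 and −3.48 ± 0.45 (SD, n = 3 each), and those of Cldn11 −5.79 ± 0.31 and −3.30 ± 0.38. Against 10 lymphatic endothelial genes the difference between the groups was −2.13 for Foxc2 and −2.26 for Cldn11, and the groups did not overlap by either measure. Of the 10 lymphatic genes 5 were below and 5 above 0, and 0 were called by edgeR (4 lower and 2 higher at an unadjusted p under 0.05). Their log2 fold changes ran from −2.27 to 1.72, so the mean of this list averages over changes in opposite directions. The 4 lower were Ccl21a (−2.27, SE 0.62), Klhl4 (−1.45, SE 0.23), Reln (−0.53, SE 0.11) and Prox1, and the 2 higher were Stab2 (1.72, SE 0.26) and Lyve1. The mean of the list is therefore no measure of lymphatic content, and the differences against it are not levels per lymphatic cell. The lymphatic identity factor Prox1 stood at 9.22 ± 0.983 CPM in the knockouts and 17.7 ± 5.11 CPM in the controls (log2 fold change −0.94, SE 0.22, edgeR adjusted p = 0.272), while the hyaluronan receptor Lyve1 stood at 124 ± 33.0 and 74.6 ± 16.7 CPM (0.73, SE 0.23, adjusted p = 0.501). Neither passed the test.

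Foxc1 (gene 17300, chromosome 13, 31806646 to 31810635) is the close paralog of Foxc2 and acts with it in vessels. It had 57, 113.89 and 127 reads in the knockouts and 88.96, 116.59 and 167.53 in the controls, or 2.94, 5.65 and 6.23 CPM against 4.39, 5.79 and 8.29 CPM. The groups overlapped, and the log2 fold change was −0.32 (SE 0.34). It was −0.052 without knockout 1 and −0.049 without control 3, and −0.518 without knockout 3 and −0.509 without control 1. The counts of the pair are linked. In the 4 libraries where both had a count that was not whole, the 2 counts summed to a whole number within 0.001, as when 1 or more reads are divided between the 2 genes by the counting model. How many reads were divided cannot be read from the files. The summed reads were 70, 123 and 140 in the knockouts and 155, 171 and 268 in the controls, and the sums did not overlap between the groups (5.53 ± 1.70 against 9.78 ± 3.01 CPM, SD, n = 3). Fitted as 1 gene, the pair differed by −0.82 on the log2 scale (SE 0.30) and was not called by edgeR (adjusted p = 0.578), and 1 member, Cldn11, was then called. Per kilobase of GENCODE exon, control skin held 1.05 ± 0.338 CPM of Foxc1 and 1.33 ± 0.431 CPM of Foxc2 per kb, which differ by less than their SD, and knockout skin 0.845 ± 0.301 and 0.215 ± 0.0444. GENCODE gives Foxc1 a longer 3′ end than RefSeq (5844 against 3990 bases), and per kb of the RefSeq gene Foxc1 was at 1.54 ± 0.495 in the controls and 1.24 ± 0.44 in the knockouts, so the order of the pair in control skin depends on the annotation.

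Nfatc1 (gene 18018, chromosome 18, 80606205 to 80713071) encodes the calcineurin-dependent factor that acts with FOXC2 in valve territories. Its levels were 50.5, 61.7 and 67.9 CPM in the knockouts and 65.2, 75.8 and 91.1 CPM in the controls. Knockout 3 lay above control 1, so the groups overlapped, and the log2 fold change of −0.37 (SE 0.15) did not pass (edgeR adjusted p = 0.663). It was −0.239 without control 3, −0.475 without control 1 and, with posterior Hox level as a covariate, −0.137. The lowest adjusted p of Nfatc1 by edgeR was 0.112, with the replicate number as a block (−0.364, SE 0.064). Of 14 other genes of the calcineurin and NFAT pathway, a list of calcineurin subunits, the other NFAT genes and their regulators, none was called in either direction by edgeR or by DESeq2, none had an unadjusted p under 0.05, and their median was 0.016 on the log2 scale. The closest to the threshold, Rcan1, a feedback inhibitor of calcineurin that NFAT induces, stood at 49.6 ± 2.49 and 57.1 ± 6.58 CPM (−0.20, SE 0.10). The catalytic subunit gene Ppp3ca stood at 0.11 (SE 0.06), Nfatc2 at −0.15 (SE 0.10) and Nfat5 at 0.25 (SE 0.17).

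Gata2 (gene 14461, chromosome 6, 88193891 to 88207032) encodes a zinc finger factor upstream of PROX1 and FOXC2 in lymphatic valves, and it is also a central factor of mast cells. It stood at 37.1, 29.9 and 31.1 CPM in the knockouts and 61.2, 41.2 and 36.6 CPM in the controls. Knockout 1 was just above control 3, and the log2 fold change of −0.50 (SE 0.20) did not pass (edgeR adjusted p = 0.652). It was −0.25 without control 1 and stayed negative in the other alternatives. Its lowest adjusted p by edgeR was 0.0631, with the hair follicle score in the fit (−0.545, SE 0.098). Mast cell genes also lay lower in the knockouts. The summed level of 8 mast cell genes was 1850 to 1910 CPM in knockout and 2670 to 3700 CPM in control libraries, highest in control 1 as for Gata2. Their mean log2 CPM was 6.39 to 6.84 in the controls. It was 5.91 in knockout 1, the knockout library highest in Gata2, and 5.99 and 6 in knockout 2 and 3. None of the 8 was at 0 in all libraries. Of the 7 tested, 0 were called and 6 were lower at an unadjusted p under 0.05. Relative to that list, Gata2 stood at −0.94 ± 0.21 in the knockouts and −1.07 ± 0.16 in the controls, and relative to the pan-endothelial list at −0.25 ± 0.23 and 0.17 ± 0.33 (log2 CPM difference, SD, n = 3). The part of mast cells in the Gata2 values was not tested.

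Other GATA factors and cofactors were not called. Of 9 listed, 8 were tested, both genes with an unadjusted p under 0.05 were lower (2), and none was called by DESeq2. Gata1, a factor of red cells and mast cells, stood at 1.44 ± 0.291 in knockout and 2.78 ± 1.22 CPM in control skin (log2 fold change −0.95, SE 0.35), and Tal1, their haematopoietic and endothelial partner, at −0.42 (SE 0.15). The adapter Lmo2 and Gata5 stood at 0.09 (SE 0.10) and 0.29 (SE 0.44).

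Gja1 (gene 14609, chromosome 10, 56377300 to 56390419) encodes connexin 43, a gap junction protein that valve cells share with keratinocytes. It was by far the most abundant of the 9 genes per length, at 155 ± 8.21 in knockout and 153 ± 36.4 CPM per kb in control skin, where the endothelial cadherin gene Cdh5 was at 49.0 ± 7.22 and 42.4 ± 3.92 and the basal keratin gene Krt5 at 1670 ± 300 and 1670 ± 464 CPM per kb. Its levels were 502, 509 and 553 CPM in the knockouts and 373, 582 and 589 CPM in the controls. The knockout libraries lay inside the range of the controls, at 0.02 on the log2 scale (SE 0.17, adjusted p by edgeR = 0.987), and the sign changed with the scaling and the libraries used.

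Among 16 other connexin genes 12 were tested and none was called by edgeR; at an unadjusted p under 0.05, 2 were lower and 1 higher, and 1, Gjd3, was called lower by DESeq2. Gjd3, a low-level connexin, had 1, 2 and 4 reads in the knockouts and 20, 16 and 44 in the controls. Its control level was 11.3-fold the knockout level (95% counting interval 5.23 to 29.0), and the groups did not overlap, but the fitted log2 fold change of −3.43 (SE 0.62) did not pass edgeR (adjusted p = 0.140). Gja5, the arterial connexin 40, stood at 15.5, 13.2 and 16.2 CPM in the knockouts and 21.9, 22.0 and 19.2 CPM in the controls (log2 fold change −0.49, SE 0.11, edgeR adjusted p = 0.238). Gjc1 stood at 47.1 ± 0.380 and 40.2 ± 1.21 CPM, and the epidermal connexin gene Gjb6 at 0.30 (SE 0.18), a log2 fold change.

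Of 17 other claudin genes 13 were tested, and none was called by edgeR. With an unadjusted p under 0.05, 2 were lower and 3 higher, and DESeq2 called 1, Cldn4, higher. Their median log2 fold change was 0.34, on the other side of 0 from Cldn11. Cldn4, a barrier claudin of epithelia, stood at 78.5, 67.2 and 26.1 CPM in the knockouts and 20.1, 23.1 and 21.0 CPM in the controls (log2 fold change 1.42, SE 0.40, edgeR adjusted p = 0.445). Cldn23 stood at 1.21 (SE 0.44), Cldn10 at 0.34 (SE 0.13) and Cldn15 at −1.12 (SE 0.37). Cldn5, the claudin of endothelial tight junctions, stood at 31.1 ± 4.23 and 27.6 ± 4.51 CPM and overlapped between the groups.

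Celsr1 (gene 12614, chromosome 15, 85898758 to 86034223) and Vangl2 (gene 93840, chromosome 1, 172000960 to 172027318) are core planar polarity genes that align cells in the plane of a sheet, in valve leaflets as in hair-bearing epidermis. Celsr1 stood at 97.6, 104 and 105 CPM in the knockouts and 75.9, 125 and 106 CPM in the controls, with a log2 fold change of −0.0058 (SE 0.17). Vangl2 stood at 52.2, 53.2 and 60.4 CPM against 45.5, 66.8 and 69.6 CPM, with a log2 fold change of −0.13 (SE 0.16), which was −0.029 without control 3, −0.066 without control 2, −0.202 without knockout 3 and −0.303 without control 1. For both genes the lowest and the highest library were controls. Fat4 (gene 329628, chromosome 3, 38884667 to 39011992), an atypical cadherin of the Dachsous and Hippo pathways that is mutated in a lymphatic disorder, stood at 111, 82.8 and 72.7 CPM in the knockouts and 95.1, 74.4 and 76.7 CPM in the controls (0.12, SE 0.18). None of the 3 passed the edgeR test (adjusted p = 0.998, 0.889 and 0.907), and the signs of all 3 changed with the libraries or covariates used.

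Of 24 other planar polarity and Fat-Dachsous genes 23 were tested and none was called by edgeR or DESeq2. An unadjusted p under 0.05 was reached by 3, all higher, namely Wnt5a (66.9 ± 3.91 against 54.3 ± 6.26 CPM), the receptor Ptk7 (289 ± 8.68 against 244 ± 20.6 CPM) and Prickle1 (47.2 ± 1.41 against 42.5 ± 0.931 CPM). Log2 fold changes ran from −0.16 to 0.30, with a median of 0.043. Ankrd6, a vertebrate counterpart of the fly polarity gene diego, stood at 0.20 (SE 0.11).

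The level of hair follicle genes differed between libraries within each genotype. Its part in the members' values was not tested beyond a fit with the score of these genes as a covariate. Of the 9 genes, 5 (Foxc1, Nfatc1, Gja1, Celsr1 and Vangl2) had their lowest library of each group in knockout 1 and control 1, the 2 libraries low in hair follicle genes, and 2 (Gata2 and Fat4) had their highest there. Across the 36 pairs of members the closest profiles were Gja1 with Celsr1 (root mean square difference 0.08), Gja1 with Vangl2 (0.09), Celsr1 with Vangl2 (0.12) and Foxc2 with Cldn11 (0.15), and the farthest was Cldn11 with Fat4 (1.37). Without knockout 1 and control 1, Foxc2 and Cldn11 were the members called, at log2 fold changes of −2.80 and −2.97 (edgeR adjusted p = 0.0187 and 0.00649), and with the hair follicle score in the fit they were at −2.58 and −2.66. With that score Foxc1 was at −0.205 (SE 0.148), Nfatc1 at −0.307 (SE 0.067) and Gja1 at 0.097 (SE 0.126). Celsr1 was then at 0.056 (SE 0.142) and Vangl2 at −0.062 (SE 0.106), and none of these 5 was called.

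**Figure D3:**
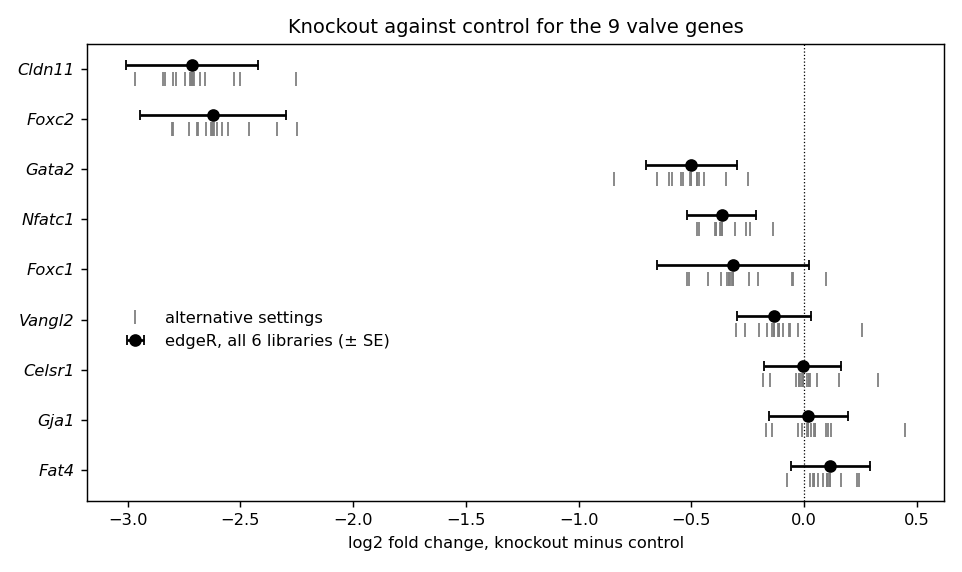
Log2 fold change, knockout minus control, of each gene (horizontal axis); black points with bars are edgeR estimates ± SE from all 6 libraries and grey ticks are the 16 alternative settings. The ticks of Foxc2 and Cldn11 lie between −2.97 and −2.25, and those of Foxc1, Vangl2, Celsr1, Gja1 and Fat4 fall on both sides of 0.

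Among 36 other genes with a known part in valve development, all tested, 1 rose and none fell by edgeR. That gene was Angpt2, the TIE2 ligand that lymphatic and venous valves need, at 34.8, 36.4 and 36.3 CPM in the knockouts and 18.4, 16.4 and 21.7 CPM in the controls (log2 fold change 0.93, SE 0.11, adjusted p = 0.0353). That call was lost when any 1 library was left out and with the posterior Hox score. The median of the list was 0.052, with 25 genes above and 11 below 0. At an unadjusted p under 0.05 by edgeR, 7 were higher and 2 lower. Every knockout library lay above every control library for 8 of the 36 genes, against 7.03% of all genes tested. The reverse held for 1 gene, against 6.78%. Vegfc, the lymphatic growth factor, and Svep1, an extracellular ligand of TIE1, did not pass edgeR, at log2 fold changes of 0.67 (SE 0.12, adjusted p = 0.147) and 0.96 (SE 0.18, adjusted p = 0.168). DESeq2 called 4 of the list, Angpt2, Svep1 and Vegfc higher and Prox1 lower.

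Several valve genes that act beside FOXC2 did not pass the edgeR test. Itga9, the integrin chain that valve leaflets use to assemble fibronectin, stood at 64.7 ± 5.62 CPM in the knockouts and 63.2 ± 6.08 CPM in the controls. The flow channel gene Piezo1 stood at 142 ± 16.4 and 141 ± 17.0 CPM, and the groups overlapped for both. Gja4, which encodes connexin 37 and is controlled by FOXC2 in lymphatic valves, stood at 15.8 ± 1.02 and 19.2 ± 3.17 CPM (adjusted p = 0.685), and the flow-induced factor gene Klf2 at a log2 fold change of −0.43 (SE 0.14, adjusted p = 0.533). These 4 genes were named after their values were seen.

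**Figure D4:**
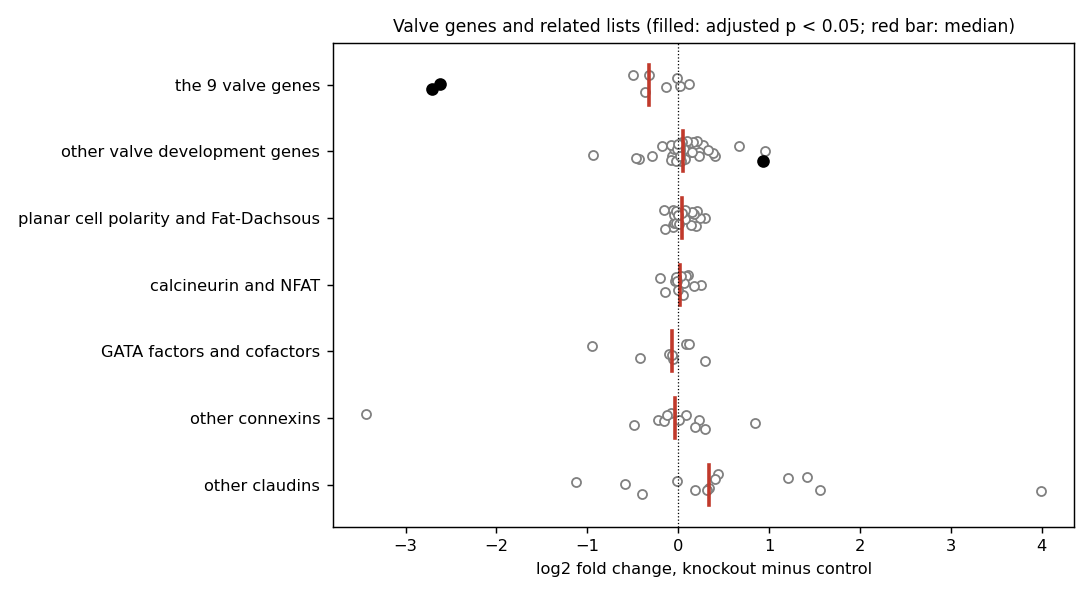
Log2 fold change, knockout minus control, of the 9 valve genes and of 6 lists of related genes (1 point per tested gene, filled where the edgeR adjusted p is under 0.05, red bar at the median). Filled points are Foxc2 at −2.62, Cldn11 at −2.71 and Angpt2 at 0.93, and the list medians lie between −0.32 and 0.34.

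Neighbouring genes were read as a check of position, by taking the 2 genes of the files on either side of each member. Of 36 such genes 28 were tested, none was called by edgeR, none had an unadjusted p under 0.05, and the log2 fold changes ran from −0.70 to 0.26. Next to Foxc2, Mthfsd (7758 bases away) stood at 17.8 ± 0.589 and 18.0 ± 0.623 CPM, and the forkhead genes Foxf1 and Foxl1 had 29 and 15.61 summed knockout reads against 26 and 16.61 control reads. Next to Cldn11, Skil (26997 bases away) stood at 36.3 ± 2.81 and 32.8 ± 4.01 CPM and Slc7a14 at 3.28 ± 0.219 and 3.13 ± 0.278 CPM. The groups overlapped for these 5 genes. The other gene beyond Foxc2, 1700018B08Rik, was not tested and had 0 knockout and 5 control reads. Among neighbours of other members the groups were separated for Atp9b (log2 fold change −0.08), Rab7 (0.13) and Cerk (0.14), named after their values were seen.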

How the data were processed

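Skin RNA of 3 Tie1 knockout and 3 control libraries was sequenced after purification of mRNA on oligo(dT) beads, per the labels' protocols. Each deposited file holds 1 estimated count (expected count) per gene, not normalized, per the file headers and values: 31.0 to 31.9% of values were more than 0.001 from a whole number. RSEM 1.2.12, HISAT2 2.0.4, Bowtie2 2.2.5 and GRCm38.p6 are listed in the submitters' processing notes, without roles. A strand setting was not given in the sources used here. Such counts divide reads between similar genes by a model.

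Counts were rounded, filtered with filterByExpr (minimum count 10) and scaled by TMM, and 15035 genes were tested with edgeR 4.0.16 (robust quasi-likelihood F test, genotype only, R 4.3.3), checked on data simulated from these libraries. SE is the absolute log2 fold change divided by the square root of F. A value of 3 reads was 0.147 to 0.155 CPM. The chi-square per gene between pairs of libraries was 9.98 to 49.8, where 1 is sampling noise, so no library was counted as a duplicate. Levels per kb used the union of exons of the GENCODE M21 basic set. Scores are mean log2 CPM (prior count 2).

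The members and gene lists were chosen with earlier results of these data known, and the posterior Hox list had been chosen after its values were seen. Named were all members, Tie1, the called genes and the 4 smallest p of each list, the 5 genes closest to Foxc2 (predicted genes passed over) and up to 3 markers of a list. Cldn5 was named in addition, and further lymphatic markers were added after their values were seen. Neighbours were added later. Of the listed genes Dchs2 and Tpsab1 were not analysed here. Alternatives were scaling by RLE or upper quartile, testing without a filter, a filter of 1 CPM in 3 libraries, DESeq2 1.42.0, limma-voom (limma 3.58.1), a replicate block, covariates and left-out libraries, and, chosen after seeing the data, Foxc1 and Foxc2 summed.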

Additional observations from a re-analysis of the deposited data

How the results depend on the processing

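The 2 member calls were made under RLE and upper-quartile scaling, both other filters, DESeq2, the replicate block, the hair follicle score and without both number 1 libraries. They were 0 with limma-voom and with the posterior Hox score, 0 with any 1 library left out (range 0 to 0) and 1 with Foxc1 and Foxc2 summed. The cause was not tested. Fits without a library have fewer samples, as has the fit without both number 1 libraries, which kept both calls. The count over all genes, 24, was 38 with no filter, 210 with DESeq2, 15 with limma-voom, 139 without both number 1 libraries, 117 with the hair follicle score, 3 with the posterior Hox score, and 1 to 11 with 1 library left out. The median gene moved by −0.0308 with upper-quartile scaling. Among other valve genes the count of 1 was 4 with DESeq2, 3 without both number 1 libraries, 0 with the posterior Hox score and 0 to 0 with 1 library left out. The connexin count of 0 was 1 (Gjd3) with DESeq2 and the hair follicle score, and the claudin count of 0 was 1 (Cldn4) with DESeq2, and 0 to 1 with 1 library left out (1 without knockout 3). Same-numbered libraries are not shown to be paired: the correlations of their deviations were 0.411, 0.043 and 0.266, and knockout 2 was closest to control 3 (0.184). With the replicate block 52 genes were called, 2 members, 2 other valve genes (Angpt2 and Svep1) and 1 connexin (Gjd3).

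Signs changed for members near 0. Foxc1 was at 0.097 and Vangl2 at 0.256 with the posterior Hox score, and Fat4 at −0.077 without knockout 1 (range −0.077 to 0.242 with 1 library left out). Gja1 was at −0.010 with upper-quartile scaling, −0.141 without both number 1 libraries, −0.026 without knockout 3 and −0.167 without control 1 (range −0.167 to 0.121). Celsr1 was at 0.024 with limma-voom, 0.022 with the replicate block, 0.056 with the hair follicle score and 0.326 with the posterior Hox score, and at 0.026, 0.157 and 0.015 without knockout 1, control 2 and control 3 (range −0.182 to 0.157). With 9 to 14 reads per knockout library, depth limits the precision of Foxc2 and Cldn11.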

Other observations

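Of the 13 tested claudins other than Cldn11, 3 were far higher in knockout 2 than in the other libraries, and they are named after their values were seen. Cldn3 stood at 1.39, 23.0 and 0.294 CPM in the knockout and 0.691, 0.396 and 0.444 CPM in the control libraries. Cldn7 stood at 5.21 CPM and Cldn6 at 2.73 CPM in knockout 2, against at most 1.19 and 0.937 CPM in the other 5 libraries. Knockout 2 was not the highest for Cldn4, Cldn23 or Cldn2: Cldn4 and Cldn23 were highest in knockout 1, at 78.5 and 26.2 CPM, and Cldn2 was at 1.83 CPM in knockout 2 and 1.67 to 3.47 CPM elsewhere. None of these genes was called by edgeR with all 6 libraries, and Cldn4 was called without knockout 3. Foxc2 and Cldn11 were also lowest in knockout 2, and without it their log2 fold changes were −2.46 and −2.53.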
